A study of Mus musculus with 12 samples.

Results

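The genes described here encode the elastic fibre, glycoprotein and proteoglycan matrix of the aortic wall. They are 48 genes chosen by name: elastin and the microfibril core, fibulins, latent TGF-beta binding proteins, lysyl oxidases, adhesive and matricellular glycoproteins, small leucine-rich proteins and proteoglycans, and large proteoglycans with hyaluronan synthases. The choice was made with earlier results of these data known. Of the 48, 46 had at least 1 row in the deposited transcript table, out of 12287 genes, and 45 had enough signal to be tested, out of 12063. Fbn2 and Has2 had no row and are not analysed here. Has1, a hyaluronan synthase, was too low to test.

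Whole aortae of C57BL/6 mice aged 7 weeks were collected from a control group and from a group fasted for 24 hours, with 6 libraries in each. The labels name no other treatment and no engineered allele in either group. Fat was dissected away before freezing, and Trizol RNA was enriched for poly(A) with oligo(dT) beads and sequenced from strand-specific KAPA libraries on a NovaSeq. The labels do not say whether each library came from its own mouse, so each p-value rests on the spread among libraries, which may be technical. Levels are FPKM, fragments scaled to transcript length and library total, summed over the listed transcripts of a gene, so that levels of different genes can be compared per length. A difference is the fasted mean less the control mean of log2(FPKM + 1), given with its SE, a scale that understates the change of low genes. A gene was called changed at a Benjamini-Hochberg adjusted p under 0.05 from limma over all 12063 genes. In whole tissue, fewer cells of a type and less RNA per cell cannot be told apart.

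In the media of the aorta, smooth muscle cells lay down elastic lamellae. Tropoelastin is deposited on fibrillin microfibrils, fibulins and EMILINs guide its assembly, and lysyl oxidases oxidise its lysines so that monomers are joined into a durable polymer. Latent TGF-beta binding proteins tie the inactive growth factor to the same microfibrils. Matricellular glycoproteins modulate how cells attach to the matrix, small leucine-rich proteoglycans bind collagen fibrils, and versican with hyaluronan forms a hydrated gel between the lamellae.

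RefSeq promoters on GRCm38.p6 were held for 31 of the members, as 43 windows of 300 bases that run from 250 before a start to 50 after it. The 7 windows shown belong to Ltbp1, Fbln5, Tnc, Spp1 and Aspn, 5 of the members whose calls held in every setting tried. Both windows of Ltbp1 and of Fbln5 are shown because their transcripts are described separately, and of the 2 windows held for Tnc and for Spp1 the one farther upstream is shown. The Ltbp1 windows are chr17:75005279-75005578 and chr17:75178531-75178830 on the plus strand. The Fbln5 windows are chr12:101819070-101819369, nearest to Fbln5-201, and chr12:101818435-101818734, nearest to Fbln5-203, both on the minus strand. Tnc is at chr4:64046966-64047265 on the minus strand. Spp1 is at chr5:104434861-104435160 and Aspn at chr13:49544193-49544492, both on the plus strand. Each sequence reads 5′ to 3′ along its gene, and capitals mark matches, on either strand, to the motifs named after the sequences.
Ltbp1 long start: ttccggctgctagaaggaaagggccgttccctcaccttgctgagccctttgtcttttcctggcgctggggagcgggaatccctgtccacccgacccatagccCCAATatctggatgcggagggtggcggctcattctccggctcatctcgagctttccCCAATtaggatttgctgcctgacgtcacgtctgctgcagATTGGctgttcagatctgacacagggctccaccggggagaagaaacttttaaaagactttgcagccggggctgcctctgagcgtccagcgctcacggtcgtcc
Ltbp1 short start: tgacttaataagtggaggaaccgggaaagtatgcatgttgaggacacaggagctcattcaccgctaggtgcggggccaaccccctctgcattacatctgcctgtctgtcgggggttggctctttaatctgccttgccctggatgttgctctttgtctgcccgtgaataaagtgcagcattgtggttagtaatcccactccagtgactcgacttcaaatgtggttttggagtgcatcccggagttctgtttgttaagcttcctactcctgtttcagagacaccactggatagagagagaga
Fbln5 upstream start: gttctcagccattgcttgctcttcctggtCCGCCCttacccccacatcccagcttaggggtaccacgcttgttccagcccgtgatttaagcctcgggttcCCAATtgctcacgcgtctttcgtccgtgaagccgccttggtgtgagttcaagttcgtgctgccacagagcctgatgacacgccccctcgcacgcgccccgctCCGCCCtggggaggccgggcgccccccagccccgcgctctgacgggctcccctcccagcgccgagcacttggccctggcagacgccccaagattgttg
Fbln5 downstream start: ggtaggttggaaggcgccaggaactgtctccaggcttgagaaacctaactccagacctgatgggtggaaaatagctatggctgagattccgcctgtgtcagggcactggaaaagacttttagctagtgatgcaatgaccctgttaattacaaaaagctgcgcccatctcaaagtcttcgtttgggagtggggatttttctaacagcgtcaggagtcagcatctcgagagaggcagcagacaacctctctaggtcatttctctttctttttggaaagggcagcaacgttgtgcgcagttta
Tnc: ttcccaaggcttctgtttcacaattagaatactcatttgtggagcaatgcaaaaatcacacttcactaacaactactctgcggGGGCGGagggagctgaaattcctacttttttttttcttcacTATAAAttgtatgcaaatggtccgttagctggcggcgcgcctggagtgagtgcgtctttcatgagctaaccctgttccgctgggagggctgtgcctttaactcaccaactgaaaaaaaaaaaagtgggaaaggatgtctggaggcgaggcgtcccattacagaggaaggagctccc
Spp1: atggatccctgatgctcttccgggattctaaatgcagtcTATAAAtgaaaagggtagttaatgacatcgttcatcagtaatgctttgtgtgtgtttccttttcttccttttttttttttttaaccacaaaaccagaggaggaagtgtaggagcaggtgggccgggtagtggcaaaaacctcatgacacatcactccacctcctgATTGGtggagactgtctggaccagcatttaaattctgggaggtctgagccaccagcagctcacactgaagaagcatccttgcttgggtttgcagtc
Aspn: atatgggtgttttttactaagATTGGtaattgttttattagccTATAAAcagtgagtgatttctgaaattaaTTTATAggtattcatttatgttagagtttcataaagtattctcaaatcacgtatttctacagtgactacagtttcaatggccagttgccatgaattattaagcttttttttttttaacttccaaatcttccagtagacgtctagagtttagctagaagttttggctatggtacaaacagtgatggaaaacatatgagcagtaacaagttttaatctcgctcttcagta

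The motifs searched on both strands were the TATA box (letters TATAAA), the CCAAT box, the GC box (letters GGGCGG), the E box (letters CACGTG), the AP-1 site (letters TGACTCA), the FoxO site (letters TGTTTAC), the glucocorticoid response element and the CArG box bound by serum response factor. The Ltbp1 long start held 3 CCAAT boxes, while its short start held none of these motifs. The upstream Fbln5 window held 1 CCAAT box and 2 GC boxes, and the downstream one held none of the motifs. Tnc held a TATA box and a GC box, Spp1 a TATA box and a CCAAT box, and Aspn 2 TATA boxes and 1 CCAAT box. The TATA box letters began 126 bases before the start in Tnc, 211 in Spp1, and 207 and 178 in Aspn. Among 32817 RefSeq windows, the GC box was in 51.2% of member windows and 35.6% of all, and the TATA box in 18.6% of member windows and 13.6% of all. The CCAAT box was in 32.6% of member windows and 37.4% of all, the E box in 4.65% of member windows and 7.15% of all and the AP-1 site in 6.98% of member windows and 5.2% of all. No member window held the FoxO site, the glucocorticoid response element or the CArG box, which were in 3.65%, 0.475% and 1.63% of all windows. These matches describe letters in the windows shown and no binding was measured.

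Before the results, 4 libraries stood apart among the tested members. Fasted replicate 1 was the highest of its group in 18 of 45 members and control replicate 2 in 17, while fasted replicate 3 was the lowest in 21 and control replicate 3 in 27. Smooth muscle markers (10 genes) summed to 8878 to 11052 FPKM in controls and 8809 to 10015 FPKM in fasted aortae, with 2 higher and 1 lower on fasting. White adipocyte markers rose in 5 of the 9 tested, with sums of 119 to 186 FPKM in controls and 236 to 515 FPKM in fasted aortae. Of 12 fibroblast markers 4 rose and 4 fell, and their sum was 3134 to 4308 and 2819 to 3267 FPKM. That list includes Col1a1, Col1a2 and Col3a1, which are also among the collagens read below. Its sum is therefore not a measure of fibroblast content apart from matrix genes. Endothelial sums were 169.9 to 249 and 217 to 301 FPKM with 1 of 10 markers higher. Of 11 chondrocyte markers 8 had no row.

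Fasting was accompanied by modest and mixed changes: of the 45 tested members 5 rose, 11 fell and 29 were not called, the last with log2 differences of -0.23 to 0.29 and adjusted p of 0.0569 to 0.982. Emilin1, Fbln5, Ltbp1 and Tnc fell and Spp1 and Aspn rose, and these 6 kept their gene-level call in every setting tried on genes. The share called was 35.6%, beside 31.7% of all genes tested. By role it was 28.6% for elastin and the microfibril core, 40% for fibulins and 25% for latent TGF-beta binding proteins. It was 50% for lysyl oxidases, 40% for adhesive and matricellular glycoproteins, 37.5% for small leucine-rich proteins and 0% for large proteoglycans. Each role had only 2 to 15 tested genes. In the higher direction 11.1% of members were called, beside 13.8% of all genes, and in the lower direction 24.4%, beside 17.9%. With median-of-ratios scaling 1974 of all genes were higher and 1947 lower, beside 1667 and 2154 here, and 5 members rose and 10 fell. The members' share called in each direction therefore lay near the background. The median difference was -0.043 over the members and -0.024 over all genes tested. In 3 members, all lower on fasting, the groups did not overlap, whereas 17.0% of all genes had groups that did not overlap, 10.2% with the fasted group below and 6.78% with it above. Changes were small: 1 called member reached a log2 difference of at least 1 in size and 11 of the 16 stayed under 0.5.

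**Figure D1:**
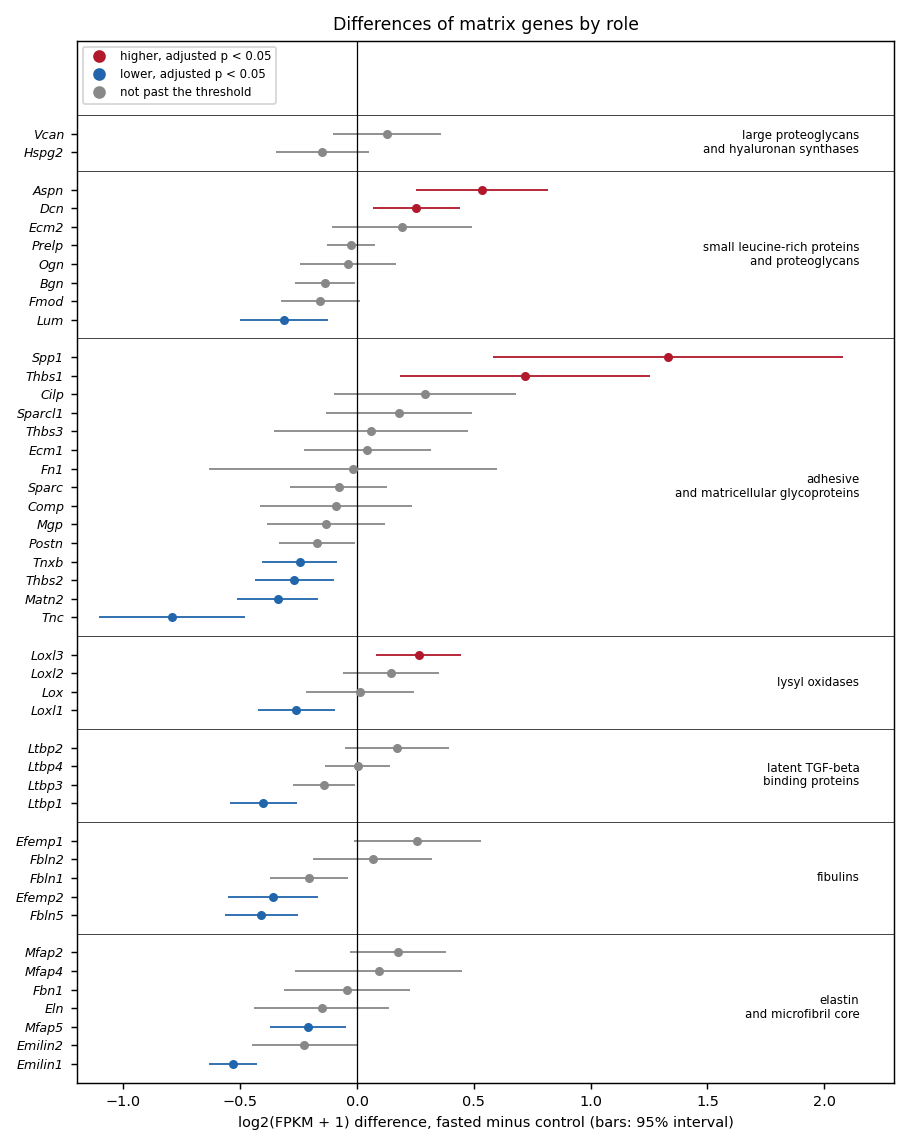
Log2 difference, fasted minus control, of log2(FPKM + 1) for the 45 tested members, grouped by role, with points for the limma estimate of 6 against 6 libraries and bars for its 95% interval. Of the 16 called members 11 lie left of zero and 5 right of it, and Spp1 lies farthest right.

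Several matrix genes were highly abundant in the aorta. Together they held 4.16 ± 0.229% of all listed FPKM in controls and 3.997 ± 0.358% in fasted aortae (SD, n = 6). Their summed level was 12541, 12880 and 14174 FPKM in controls and 11594, 12101 and 14097 FPKM in fasted aortae, given here and below as the lowest, median and highest of 6 libraries. The summed levels overlapped between groups. Sparc, Mgp, Eln and Bgn each exceeded 1000 FPKM in controls, and with Postn these 5 made up 65.6% of the members' FPKM. None of those 5 was called.

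**Figure D2:**
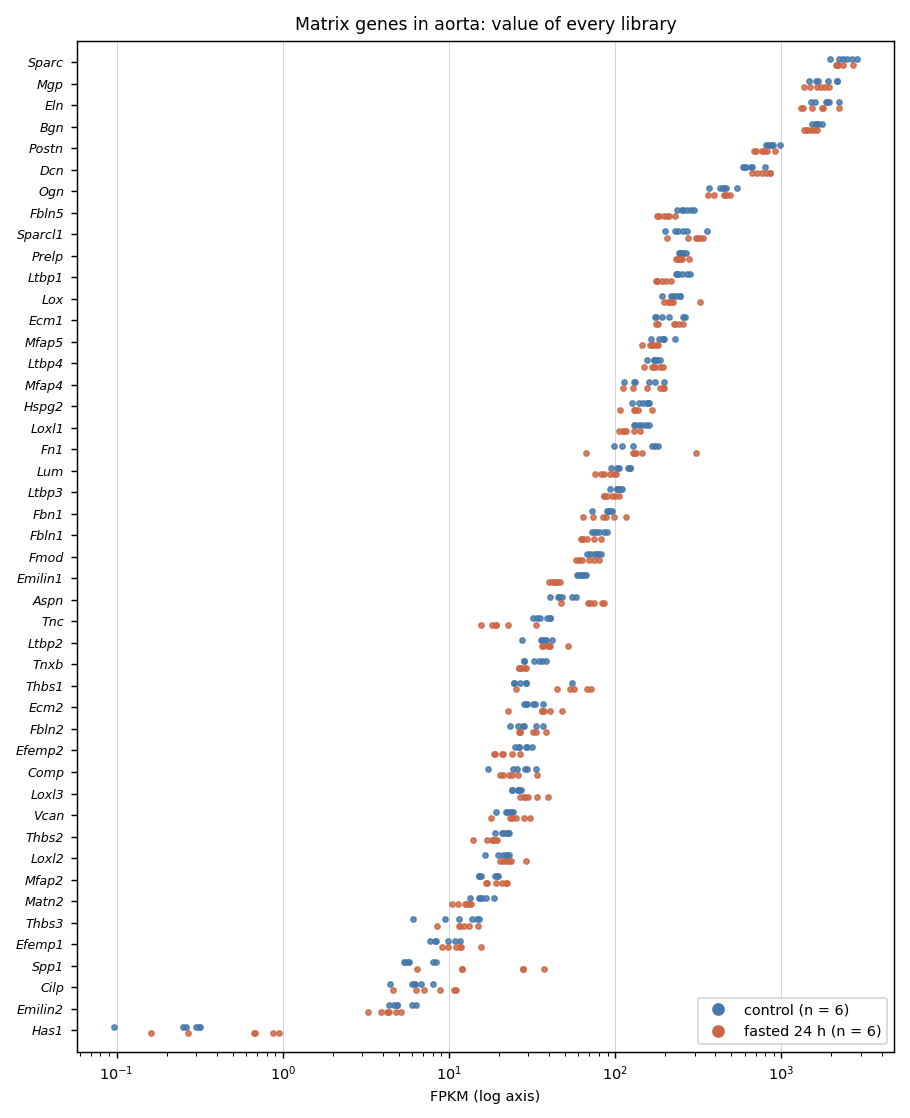
FPKM of each member in each of the 12 libraries on a logarithmic axis, with 6 control and 6 fasted libraries as separate points. Levels span from below 1 FPKM for Has1 to above 1000 FPKM for Sparc, and the groups lie close together for most genes.

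Among elastin and the microfibril core, 2 of 7 tested genes fell, none rose, and elastin itself was not called. Emilin1 (chr5:30913402-30921277, + strand), a glycoprotein placed between elastin and microfibrils that also restrains TGF-beta maturation, was at 58.7, 63.1 and 67.02 FPKM in controls and 39.8, 43.4 and 46.5 FPKM in fasted aortae. Every fasted library was below every control. The mean fell from 62.8 ± 3.06 to 43.2 ± 2.37 FPKM (SD, n = 6), a log2 difference of -0.53 ± 0.048 (limma, adjusted p = 6.83e-06). Mfap5, the microfibril component MAGP-2, was at 164, 193 and 228 FPKM in controls and 144, 167 and 182 FPKM in fasted aortae. The groups overlapped, and Mfap5 fell with a log2 difference of -0.21 ± 0.075 (limma, adjusted p = 0.0482). That call was lost without any 1 of 10 libraries, all but control replicate 3 and fasted replicate 3 (adjusted p = 0.0534 to 0.0959). The most abundant transcript alone gave an adjusted p of 0.09196, adipocyte marker covariates gave 0.2303 and median-of-ratios scaling gave 0.0705, so Mfap5 was not called under these either.

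Eln (chr5:134702593-134747323, minus strand), the precursor of the elastic lamellae, was at 1498, 1864 and 2214 FPKM in controls and 1304, 1645 and 2210.0 FPKM in fasted aortae. The groups overlapped, with fasted replicate 1 near the top of the controls and fasted replicates 2 and 6 below the lowest control. Its log2 difference was -0.15 ± 0.13 with a 95% interval of -0.44 to 0.14 (limma, adjusted p = 0.419). Fbn1, the fibrillin that forms the microfibril backbone, was at 72.2, 91.1 and 95.9 FPKM in controls and 63.9, 86.3 and 116 FPKM in fasted aortae. The fasted libraries spread to both sides of the controls, with replicate 1 highest and replicate 3 lowest. The difference of Fbn1 was -0.043 ± 0.12 with an interval of -0.31 to 0.23 (limma, adjusted p = 0.824). The microfibril-associated Mfap2 and Mfap4 and the EMILIN family member Emilin2 were not called either, with differences of 0.17, 0.093 and -0.23. Mfap4 shares exonic bases with Mapk7 on the other strand, and no source used here says whether the authors counted by strand.

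Of the 5 fibulins, 2 fell and none rose. Fbln5 (chr12:101746565-101819055, minus strand), which tethers tropoelastin to microfibrils and to integrins, was at 234, 263 and 299 FPKM in controls and 178, 201 and 228 FPKM in fasted aortae. The groups did not overlap. Its mean fell from 266 ± 23.7 to 200.2 ± 18.1 FPKM (SD, n = 6), a log2 difference of -0.41 ± 0.073 (limma, adjusted p = 0.00103). Efemp2, or fibulin-4, which brings lysyl oxidase to tropoelastin, was at 25.04, 27.8 and 31.5 FPKM in controls and 18.6, 20.9 and 26.9 FPKM in fasted aortae. The groups overlapped, and Efemp2 fell with a log2 difference of -0.36 ± 0.089 (limma, adjusted p = 0.00836). With its most abundant transcript alone the call was lost (adjusted p = 0.531). Efemp2 shares 173 exonic bases with Mus81 on the other strand, a gene at 2.204 and 1.19 FPKM in the groups.

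Fbln1, which binds fibronectin and other matrix glycoproteins, was at 72.3, 77.9 and 88.7 FPKM in controls and 61.9, 65.6 and 82.3 FPKM in fasted aortae. The groups overlapped and Fbln1 was not called (log2 difference -0.21 ± 0.077, limma adjusted p = 0.0569). It was called lower without control replicate 3 (adjusted p = 0.0476), fasted replicate 4 (0.0499) or fasted replicate 5 (0.01397). Fbln2 and Efemp1, the latter also known as fibulin-3, had differences of 0.067 and 0.26 and were not called.

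Of the 4 latent TGF-beta binding proteins, 1 fell and none rose. Ltbp1 (chr17:75005568-75392512, + strand), which holds latent TGF-beta in the matrix, was at 233, 245 and 282 FPKM in controls and 176, 185 and 215 FPKM in fasted aortae. No fasted library reached the lowest control. The mean fell from 252 ± 20.1 to 190.4 ± 15.9 FPKM (SD, n = 6), a log2 difference of -0.40 ± 0.066 (limma, adjusted p = 0.000638). Ltbp4, a family member that also serves elastic fibre assembly, was not called, at 155, 174 and 185 FPKM in controls and 149, 172 and 194 FPKM in fasted aortae (difference 0.0027 ± 0.064, interval -0.14 to 0.14, limma adjusted p = 0.982). Ratios of FPKM were computed for 9 pairs of genes, all chosen after the values were seen, and 4 of them did not overlap between groups while 5 did. The ratio of Ltbp1 to Ltbp4 was 1.28, 1.48 and 1.66 in controls and 0.955, 1.12 and 1.18 in fasted aortae, with no overlap. Ltbp2, which binds fibrillin but not latent TGF-beta, and Ltbp3 were not called, with differences of 0.17 and -0.14. Ltbp3 was called lower without control replicate 3 (limma, adjusted p = 0.0492) or fasted replicate 1 (0.0412).

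Of the 4 lysyl oxidases, which start the joining of elastin and collagen chains, 1 fell, 1 rose and 2 were not called. Loxl1, the family member directed to elastin, was at 131, 142 and 159 FPKM in controls and 106, 114 and 142 FPKM in fasted aortae. The groups overlapped, and Loxl1 fell with a log2 difference of -0.26 ± 0.076 (limma, adjusted p = 0.0196). Loxl3 was at 23.9, 26.03 and 27.2 FPKM in controls and 26.9, 29.2 and 39.5 FPKM in fasted aortae. It rose with a log2 difference of 0.26 ± 0.083 with overlapping groups (limma, adjusted p = 0.0288), and the call was lost without control replicate 4 (adjusted p = 0.0577), control replicate 5 (0.0609) or fasted replicate 3 (0.0514). With the white and brown adipocyte marker scores as covariates the adjusted p of Loxl3 was 0.381. The Loxl3 to Loxl1 ratio was 0.157, 0.1804 and 0.1999 in controls and 0.239, 0.256 and 0.305 in fasted aortae and did not overlap. Loxl3 shares 535 exonic bases with Htra2 on the other strand, which was at 0.762 and 0.608 FPKM.

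Lox, the founding enzyme of the family, was at 192, 227 and 244 FPKM in controls and 195, 215 and 321 FPKM in fasted aortae. Fasted replicate 1 stood above all other libraries of either group. The difference was 0.013 ± 0.11 with an interval of -0.22 to 0.25 (limma, adjusted p = 0.946), and -0.088 without fasted replicate 1. Loxl2 had a difference of 0.15 and was not called. Ratios to Eln overlapped between groups: Lox to Eln was 0.105 to 0.137 in controls and 0.111 to 0.1601 in fasted aortae, and Loxl1 to Eln 0.0719 to 0.0872 and 0.0587 to 0.0855. Fbln5 to Eln was 0.129 to 0.188 in controls and 0.0949 to 0.141 in fasted aortae, and Emilin1 to Eln 0.0283 to 0.0392 and 0.0202 to 0.0324.

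**Figure D3:**
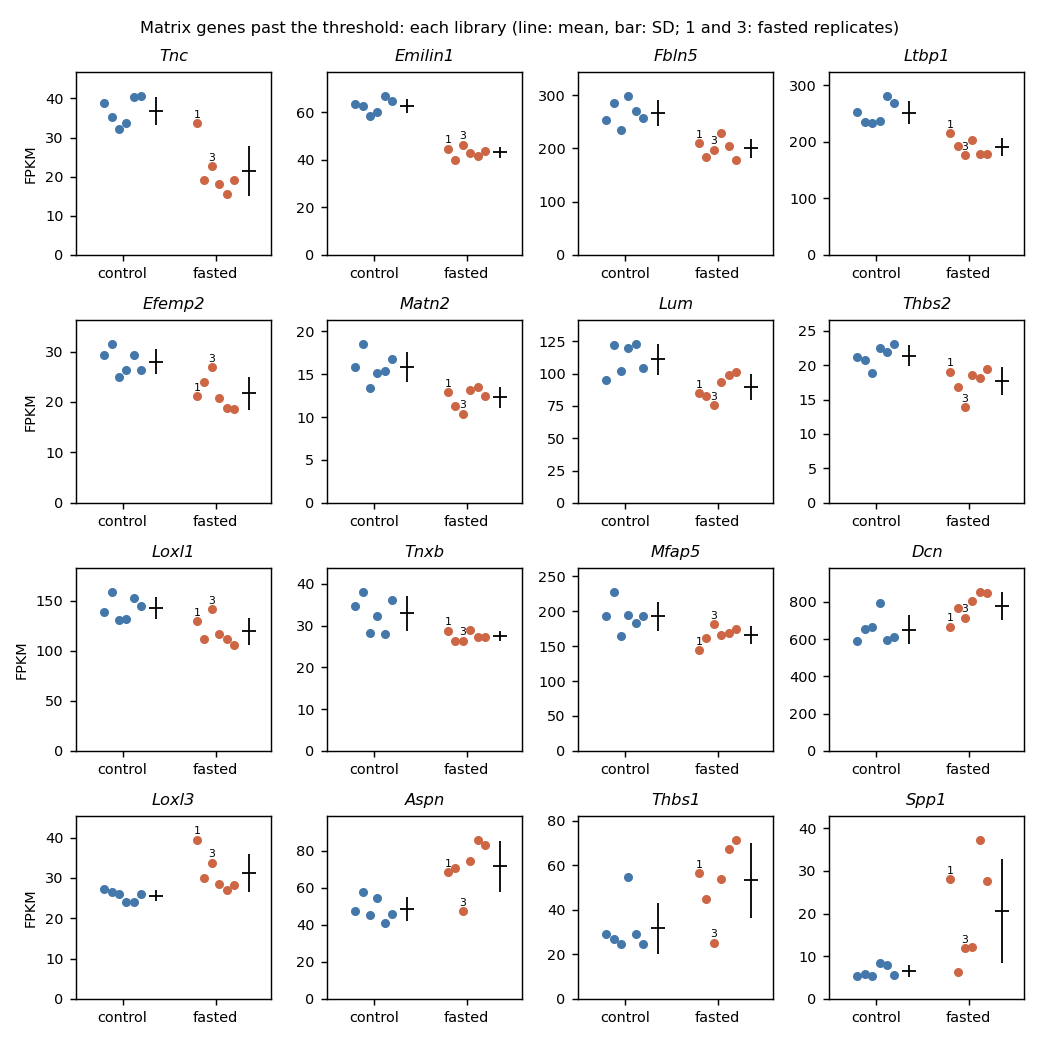
FPKM of the 16 called members in each library, with points for 6 control and 6 fasted libraries and bars for the group means with SD. Emilin1, Fbln5 and Ltbp1 show no overlap between groups, whereas Spp1 spreads widely within the fasted group.

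Of 15 adhesive and matricellular glycoproteins, 4 fell and 2 rose. Tnc (chr4:63959785-64047015, minus strand) encodes tenascin-C, which loosens the attachment of cells to fibronectin. It was at 32.2, 37.04 and 40.7 FPKM in controls and 15.6, 19.2 and 33.6 FPKM in fasted aortae. Fasted replicate 1 lay within the control range and the other 5 fasted libraries lay below it. The mean went from 36.8 ± 3.63 to 21.4 ± 6.38 FPKM (SD, n = 6), and Tnc fell with a log2 difference of -0.79 ± 0.14 (limma, adjusted p = 0.00128).

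Matn2, a matrilin that links matrix filaments, was at 13.4, 15.6 and 18.5 FPKM in controls and 10.4, 12.7 and 13.6 FPKM in fasted aortae. Thbs2, a thrombospondin that restrains vessel growth, was at 18.8, 21.5 and 23.1 and 13.9, 18.3 and 19.4 FPKM, and Tnxb, the tenascin that binds collagen, at 28.1, 33.5 and 38.1 and 26.3, 27.3 and 28.9 FPKM. The groups overlapped in all 3 genes, and the fasted median was below the control median in each. They fell with log2 differences of -0.34 ± 0.080, -0.27 ± 0.078 and -0.24 ± 0.074 (limma, adjusted p = 0.00597, 0.0196 and 0.0235). With adipocyte marker scores as covariates the log2 differences were -0.26 ± 0.12 for Matn2, -0.14 ± 0.104 for Thbs2 and -0.25 ± 0.109 for Tnxb, and none was called (limma, adjusted p = 0.153, 0.3997 and 0.136). The SE was wider than without the covariates in all 3 genes, and the difference of Tnxb was no smaller. Tnxb also lost its call without control replicate 1 (adjusted p = 0.0505), without control replicate 6 (0.0527), without both fasted replicates 1 and 3 (0.0528) or with its most abundant transcript alone (0.0516).

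Spp1 (chr5:104435118-104441050, + strand), or osteopontin, a phosphorylated ligand of integrins, was at 5.395, 5.72 and 8.37 FPKM in controls and 6.39, 19.9 and 37.3 FPKM in fasted aortae. Fasted replicates 1, 5 and 6 were highest, at 27.99, 37.3 and 27.7 FPKM, and fasted replicate 2 lay within the control range. Spp1 rose with a log2 difference of 1.33 ± 0.35, the widest change and the widest SE among the called members (limma, adjusted p = 0.0109). Thbs1, a thrombospondin that can activate latent TGF-beta, was at 24.7, 27.9 and 54.7 FPKM in controls and 25.2, 55.02 and 71.4 FPKM in fasted aortae. Control replicate 4 stood above the other 5 controls, at 54.7 FPKM, and fasted replicate 3 lay among the other controls. Thbs1 rose with a log2 difference of 0.72 ± 0.25 (limma, adjusted p = 0.0416). The call was lost without any 1 of 10 libraries, all but control replicate 4 and fasted replicate 3 (adjusted p = 0.0546 to 0.0855). Thbs1 has 1 listed transcript, so its own values were the same with the most abundant transcript alone. Its adjusted p in that setting was 0.0563, since the limma fit and the adjustment run over all genes.

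Fasted replicates 5 and 6, where Spp1 and Thbs1 were high, also carried the highest sums of skeletal or cardiac muscle markers, 212 and 159 FPKM, beside 21.9 to 45.1 FPKM in controls. Their mesothelial marker sums were 32.9 and 18.1 FPKM, beside 0.917 to 11.2 FPKM in controls. Fasted replicate 1, with Spp1 at 27.99 and Thbs1 at 56.4 FPKM, had both sums within the control ranges. They were 43.9 FPKM for muscle and 8.59 FPKM for mesothelial markers. Fasted replicate 4, with Thbs1 at 53.7 FPKM, had sums of 37.2 and 3.04 FPKM, also within these ranges. Of 10 macrophage markers 1 rose and 1 fell, with sums of 214 to 348 FPKM in controls and 218 to 376 FPKM in fasted aortae. The part of these markers in the Spp1 and Thbs1 values was not tested. Without fasted replicate 5 the adjusted p of Spp1 was 0.0209, and without fasted replicate 6 it was 0.0249 (limma).

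Fn1, fibronectin, an adhesive glycoprotein bound by several integrins, was at 98.3, 147 and 180.1 FPKM in controls and 66.8, 132 and 305 FPKM in fasted aortae. Fasted replicate 1 was highest and fasted replicate 3 lowest of all 12 libraries. The difference was -0.019 ± 0.28 with an interval of -0.64 to 0.60, so changes of either sign within it were not resolved (limma, adjusted p = 0.9695). Mgp, which inhibits calcification of the arterial wall, was at 1466, 1783 and 2167 FPKM in controls and 1363, 1678 and 1935 FPKM in fasted aortae, and Sparc, which binds collagen as it is deposited, at 1957, 2412 and 2857 and 2141, 2181 and 2707 FPKM. Both overlapped between groups and neither was called, with intervals of -0.38 to 0.12 for Mgp and -0.29 to 0.13 for Sparc.

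Postn, periostin, which supports collagen assembly, was at 809, 864 and 979 FPKM in controls and 681, 773 and 919.7 FPKM in fasted aortae. The groups overlapped and Postn was not called (difference -0.17 ± 0.075, limma adjusted p = 0.102), although it was called lower without fasted replicate 1 (adjusted p = 0.0249). The thrombospondins Thbs3 and Comp, the Sparc relative Sparcl1, the cartilage protein gene Cilp and Ecm1 were not called, with differences from -0.089 for Comp to 0.29 for Cilp. Thbs3 shares exonic bases with Mtx1 on the other strand.

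Among 8 small leucine-rich proteins, which bind collagen fibrils and set their spacing, 2 rose and 1 fell. Aspn (chr13:49544443-49567565, + strand), asporin, which binds collagen and TGF-beta, was at 40.7, 46.7 and 57.8 FPKM in controls and 47.4, 72.4 and 85.9 FPKM in fasted aortae. Fasted replicate 3 lay within the control range and the other 5 fasted libraries lay above it. The mean rose from 48.6 ± 6.398 to 71.6 ± 13.7 FPKM (SD, n = 6), a log2 difference of 0.53 ± 0.13 (limma, adjusted p = 0.00789).

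Dcn and Lum are neighbours on chromosome 10, on the same strand and 46984 bases apart, and were called in opposite directions. Dcn, decorin, which binds collagen fibrils, was at 589, 632 and 794 FPKM in controls and 666, 785 and 854 FPKM in fasted aortae. Lum, lumican, was at 94.9, 112 and 123 and 75.5, 89.3 and 101 FPKM. The groups overlapped in both genes. Dcn rose with a log2 difference of 0.25 ± 0.085 (limma, adjusted p = 0.0373) and Lum fell with one of -0.31 ± 0.087 (adjusted p = 0.0162). Their ratio was 4.82, 6.02 and 6.64 in controls and 7.82, 8.62 and 9.48 in fasted aortae and did not overlap. The Dcn call was lost without any 1 of 9 libraries, all but control replicate 4 and fasted replicates 1 and 3 (adjusted p = 0.05204 to 0.0805), or with its most abundant transcript alone (0.0547). The Lum call was lost with adipocyte marker covariates (log2 difference -0.13 ± 0.107, adjusted p = 0.4304) or without both fasted replicates 1 and 3 (-0.24 ± 0.088, adjusted p = 0.0654).

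On chromosome 13 the small leucine-rich genes Ecm2, Aspn, Omd and Ogn follow each other on the plus strand. Omd, osteomodulin, is no member of the 48 but rose too, from 20.95 ± 3.38 to 42.3 ± 6.63 FPKM (SD, n = 6), a log2 difference of 0.98 ± 0.12 (limma, adjusted p = 6.81e-05). Ogn was not called (difference -0.039 ± 0.10, adjusted p = 0.794), so neighbouring genes of this cluster had unlike differences, which were not set against each other in a test. The Aspn to Ogn ratio was 0.0968, 0.106 and 0.1299 in controls and 0.131, 0.166 and 0.186 in fasted aortae, with no overlap, whereas the Ecm2 to Ogn ratio overlapped, at 0.0636, 0.0668 and 0.0893 and at 0.0623, 0.0838 and 0.105. Ecm2 was not called (difference 0.19 ± 0.14, adjusted p = 0.3199), but was called higher without fasted replicate 3 (adjusted p = 0.0117) and with adipocyte marker covariates (0.03201).

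Bgn, biglycan, an abundant collagen-binding proteoglycan of the vessel wall, was at 1524, 1625 and 1758 FPKM in controls and 1369.6, 1468 and 1642 FPKM in fasted aortae. The groups overlapped and Bgn was not called (difference -0.14 ± 0.059, interval -0.27 to -0.0083, limma adjusted p = 0.0974), except that it was called lower without fasted replicate 1 (adjusted p = 0.0461). Fmod, fibromodulin, and Prelp were not called, with differences of -0.16 and -0.026.

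Neither tested large proteoglycan was called. Hspg2, perlecan of basement membranes, had a difference of -0.15 ± 0.092 (limma, adjusted p = 0.243). Vcan, versican, which binds hyaluronan in the interlamellar space, had one of 0.13 ± 0.11 (adjusted p = 0.396). Has1 was at 0.0963, 0.281 and 0.318 FPKM in controls and 0.162, 0.673 and 0.953 FPKM in fasted aortae, with overlapping groups. It reached 0.5 FPKM in 4 libraries, fewer than the 6 required, so it was not tested.

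**Figure D4:**
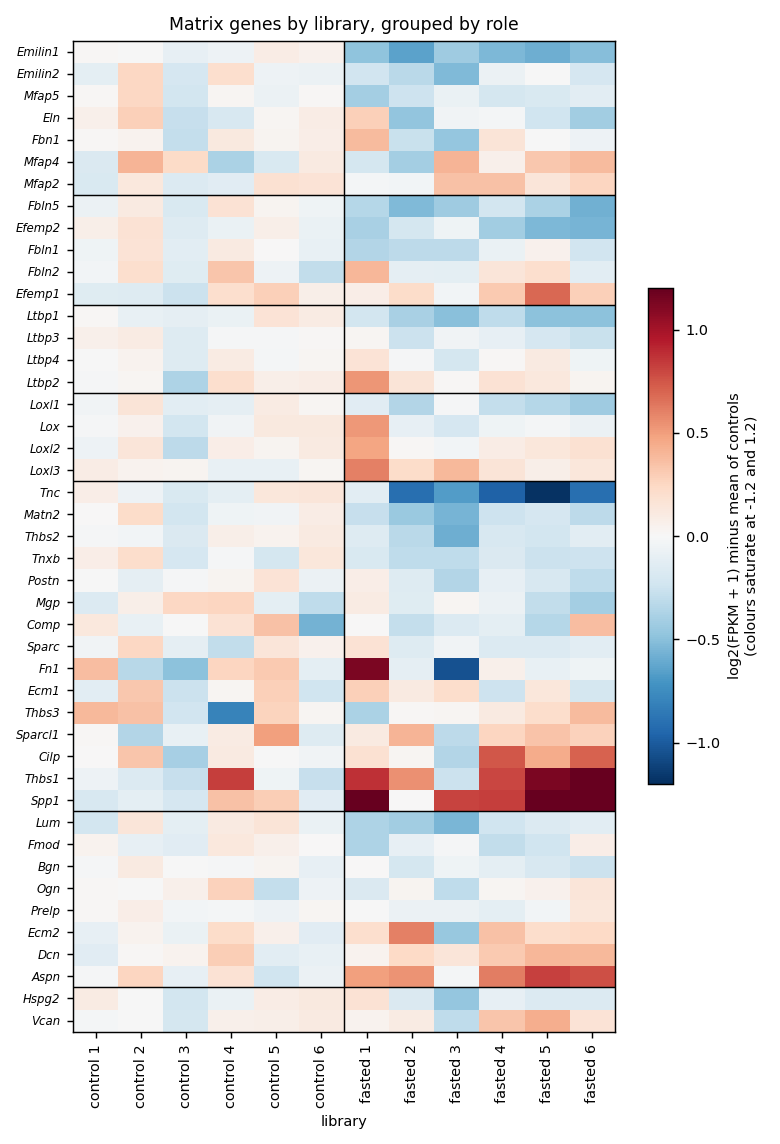
Deviation of each member's log2(FPKM + 1) from the mean of the 6 controls, with members as rows grouped by role and libraries as columns. Fasted replicate 1 is the highest of its group in 18 members and fasted replicate 3 the lowest in 21.

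The deposited rows are transcripts, and 108 of the 111 member transcripts could be tested. Of these 6 rose and 15 fell, 19.4% of the 108, beside 16.2% of all transcripts tested, of which 7.19% were higher and 8.98% lower. Versican, whose gene level was not called, had 1 transcript that rose. Vcan-201 has 13 exons and a longest exon of 375 bases, and so lacks the 2 large exons of 5217 and 2880 bases, which in versican encode the stretches that carry chondroitin sulfate chains. It was at 0.865, 1.05 and 1.78 FPKM in controls and 2.13, 2.96 and 5.91 FPKM in fasted aortae. The groups did not overlap, and the log2 difference was 0.94 ± 0.18 (limma, adjusted p = 0.00458). Vcan-203, with both large exons, and Vcan-206, with the longer one only, had means of 9.71 and 9.296 FPKM and of 5.04 and 6.78 FPKM in the groups and were not called. Vcan-208 has 3 exons and was not called. Vcan-201 made up 5.301 ± 2.04% of Vcan in controls and 12.9 ± 3.45% in fasted aortae (SD, n = 6).

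That difference in share was not called (limma on arcsine square root shares, adjusted p = 0.0645). It was called when genes needed at least 5 FPKM in every library (adjusted p = 0.0388) or without control replicate 3 (0.0397). Over the 30 member genes with 93 tested shares, 0 were called by limma, with 9 at an unadjusted p under 0.05, beside 0.532% of all shares tested that were called. A call for one transcript of a gene and not for another thus stands here without a called difference between them.

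Transcripts of Ltbp1 start in 2 regions. Ltbp1-205 starts 173242 bases and Ltbp1-202 173343 bases downstream of the long transcript Ltbp1-201, and the short window printed above holds the start of Ltbp1-205 but ends before that of Ltbp1-202. Ltbp1-202 was at 199, 213 and 246 FPKM in controls and 141, 161 and 189.9 FPKM in fasted aortae, without overlap. Ltbp1-202 fell with a log2 difference of -0.41 ± 0.078 (limma, adjusted p = 0.00396), and Ltbp1-205, from the same region, fell with -0.64 ± 0.18 (adjusted p = 0.0317). The Ltbp1-202 call held in all 16 alternatives run on transcripts, while that of Ltbp1-205 was lost with the replicate block (adjusted p = 0.0744) and without control replicate 3, 4, 5 or 6 or fasted replicate 5 (0.0517 to 0.066). Ltbp1-201, from the long start, was at 23.9, 27.2 and 29.9 and 18.1, 20.6 and 33.9 FPKM. Fasted replicate 3 was the highest library of either group for Ltbp1-201, which was not called (-0.32 ± 0.13, adjusted p = 0.124).

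For Fbln1, which was not called as a gene, Fbln1-201 was at 33.7, 36.3 and 42.1 FPKM in controls and 25.3, 29.6 and 33.6 FPKM in fasted aortae. The highest fasted library lay just under the lowest control, and Fbln1-201 fell with a log2 difference of -0.35 ± 0.074 (limma, adjusted p = 0.00811). Fbln1-202 was not called (-0.079 ± 0.12, adjusted p = 0.731). Both Fbln5 transcripts fell, Fbln5-203 from a mean of 211 to 167 FPKM and Fbln5-201 from 55.1 to 33.5 FPKM. Tnc-204, the main tenascin-C transcript, fell from 35.3 to 20.7 FPKM, and Tnc-203, which starts 26290 bases downstream, fell from 1.53 to 0.693 FPKM. The adjusted p was 0.01501 and 0.00829 for Fbln5-203 and Fbln5-201, and 0.00467 and 0.00163 for Tnc-204 and Tnc-203 (limma). Aspn-202 rose from 1.27 to 4.28 FPKM (adjusted p = 0.00243), but made up only 2.48% of Aspn in controls and 6.08% in fasted aortae. The main transcript Aspn-201 rose with a log2 difference of 0.48 ± 0.13 (limma, adjusted p = 0.0301), a call kept in only 7 of 16 alternatives. Spp1-201, the main Spp1 transcript, was not called (1.396 ± 0.45, adjusted p = 0.0539).

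**Figure D5:**
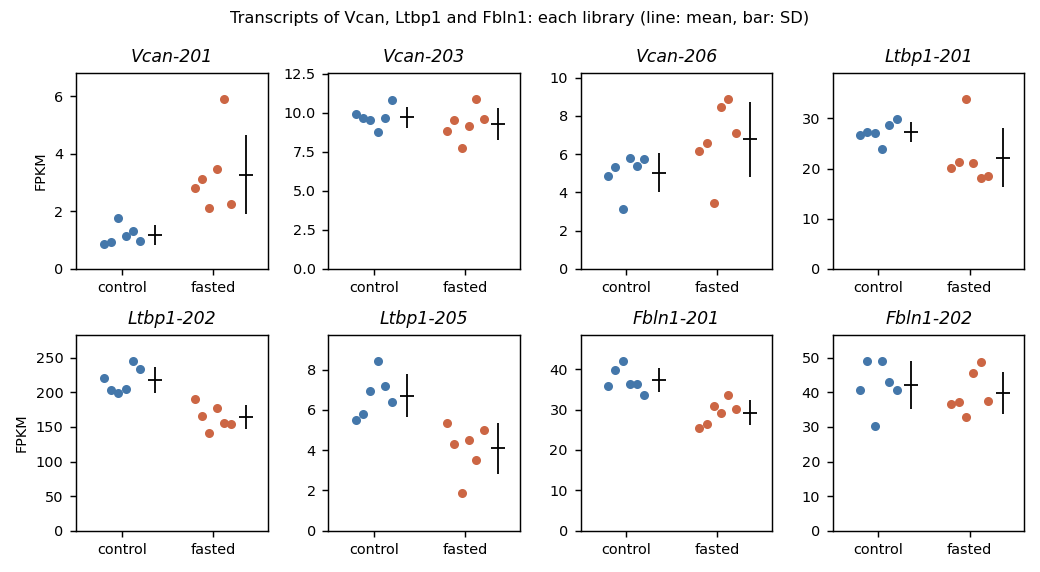
FPKM of transcripts of Vcan, Ltbp1 and Fbln1 in each library, with points for 6 control and 6 fasted libraries, a line for the mean and a bar for the SD. Vcan-201 lies higher on fasting and Ltbp1-202 and Fbln1-201 lower, without overlap between groups.

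Genes of the same pathways that are not members were read from lists chosen by name, with earlier results of these data known. Of other elastic fibre and crosslinking genes, 1 rose and 5 fell of 19 tested, a share of 31.6% beside 31.7% of all genes tested. Lgals3, galectin-3, which binds beta-galactosides, rose from 13.98 ± 1.84 to 29.6 ± 2.303 FPKM (SD, n = 6; limma, adjusted p = 2.10e-06). Adamtsl4, which aids the deposition of fibrillin-1, fell from 13.4 ± 1.24 to 9.78 ± 0.7802 FPKM (adjusted p = 0.000654), and Adamtsl3 from 11.6 ± 1.01 to 6.59 ± 0.652 FPKM (adjusted p = 1.49e-05). None of the 3 overlapped between groups.

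Of other matrix glycoproteins, 7 rose and 4 fell of 31 tested, and of other proteoglycans, 6 rose and 5 fell of 23 tested. The shares called were 35.5% and 47.8%, beside 31.7% of all genes tested. Spock2, the testican-2 proteoglycan found in both lists, rose from 6.73 ± 0.449 to 13.02 ± 2.102 FPKM (SD, n = 6; limma, adjusted p = 1.96e-05). Smoc1 rose from 129.6 ± 14.7 to 183 ± 13.96 FPKM (adjusted p = 0.000397). Matn4, among the 4 glycoproteins called lower, had means of 0.724 ± 0.103 and 0.283 ± 0.0743 FPKM. Its libraries were at 0.588 to 0.835 FPKM in controls and 0.166 to 0.378 FPKM in fasted aortae. Only the controls reached the filter of 0.5 FPKM. Matn4 was thus tested only through the group where it was high, and its call is given no weight. Sdc1, a heparan sulfate proteoglycan of the cell surface, fell from 15.9 ± 1.63 to 10.7 ± 0.797 FPKM (adjusted p = 0.000174).

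Of the genes that build and sulfate the chains of proteoglycans, 5 rose and 15 fell of 38 tested, with a median difference of -0.13. The share called was 52.6%, beside 31.7% of all genes tested. The sulfate donor of these chains is made by Papss1 and Papss2, which were called in opposite directions. Papss1 fell from 17.7 ± 0.816 to 11.6 ± 1.46 FPKM (SD, n = 6; limma, adjusted p = 9.87e-05) and Papss2 rose from 7.12 ± 0.906 to 13.7 ± 2.56 FPKM (adjusted p = 0.000216). Hs6st2, a heparan sulfate 6-O-sulfotransferase, fell from 2.79 ± 0.281 to 1.51 ± 0.227 FPKM (adjusted p = 9.49e-05). With the most abundant transcript alone, the difference of Papss1 was 0.00057 and was not called.

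In the list of hyaluronan and heparan sulfate turnover, 2 rose and 10 fell of 19 tested, with a median of -0.17. The share called was 63.2%, beside 31.7% of all genes tested. The lysosomal enzymes Hexa and Sgsh fell, from 62.7 ± 4.33 to 44.3 ± 4.21 and from 6.74 ± 0.412 to 4.79 ± 0.401 FPKM (SD, n = 6; limma, adjusted p = 0.000146 and 0.000246). Lyve1, a hyaluronan receptor of lymphatic endothelium and some macrophages, rose from 10.8 ± 1.29 to 19.6 ± 3.44 FPKM (adjusted p = 0.000224). Among the collagens, 0 rose and 11 fell of 26 tested (42.3% called), with a median of -0.23. Col27a1, Col6a3 and Col14a1 had the smallest p, with differences of -0.82 ± 0.11, -0.77 ± 0.11 and -0.61 ± 0.11. The median was -0.043 over the 45 members and -0.024 over all genes tested. It was -0.0565 over other elastic fibre and crosslinking genes, -0.022 over other matrix glycoproteins and -0.113 over other proteoglycans. A median near that of all genes was therefore not particular to the members. The lists were not tested against each other.

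With both adipocyte marker scores as covariates, 5 members rose and 6 fell, beside 5 and 11 without them. Among those that rose, Loxl3 lost its call and Ecm2 gained one, and of those that fell Mfap5, Tnxb, Thbs2, Matn2 and Lum lost theirs. White adipocyte marker sums did not overlap between groups, at 119 to 186 FPKM in controls and 236 to 515 FPKM in fasted aortae. Of the control scores for these markers, only that of replicate 6 lay within the fasted range. The white adipocyte covariate thus followed the groups, so this fit cannot separate fasting from the scores or from adipocyte content. Brown adipocyte marker sums overlapped between groups, at 33.4 to 61.1 FPKM in controls and 47.4 to 92.8 FPKM in fasted aortae. Whether the scores followed adipocyte number or RNA per adipocyte was not tested. The part of adipocyte content in the lost calls was not tested. Leaving out both fasted replicates 1 and 3, chosen after the data were seen, 9 rose and 11 fell, with Efemp1, Cilp, Ecm2 and Vcan added to those called higher. Among those called lower, Mfap5, Tnxb and Lum lost their calls and Ltbp3, Postn and Bgn gained one. Of the single libraries, leaving out control replicate 5 gave 2 that rose, control replicate 4 or fasted replicate 1 gave 4, fasted replicate 3 gave 5, and each of the other 8 gave 3. The count that fell was 9 to 13 without any single library.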

How the data were processed

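The authors deposited 1 table of FPKM values for 22699 transcripts in 12 libraries of mouse aorta RNA, 6 control and 6 fasted. FastQC, cutadapt, HISAT2, StringTie and the GRCm38 build are named, per the submitters' processing notes. No version, setting, strand option or annotation release is given in the sources used here. All listed transcripts reach 0.5 FPKM in one group's mean, and lower ones are not analysed here. Low values showed no whole-read steps, so depth is unknown and no counting interval was computed. Since FPKM is relative to a library's total, abundant genes can move the values of others.

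Groups came from the labels. Transcripts were assigned to genes through GENCODE M21 on GRCm38, with 22655 matched and 44 not (0.117% of FPKM), and summed to 12287 genes. Where 6 or more libraries reached 0.5 FPKM, a gene was tested by limma 3.58.1 in R 4.3.3 (lmFit, eBayes with trend, two-sided) on log2(FPKM + 1), with Benjamini-Hochberg adjustment over all of them. Transcripts were tested likewise. Shares of a gene's FPKM were tested as arcsine square roots, where a gene had 1 FPKM or more in each library and 2 transcripts of mean 0.5 FPKM or more. The scripts were tested on simulated data.

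The members and lists were chosen with earlier results of these data known. Full values are given for called members and, whatever their result, for Eln, Fbn1, Lox, Fn1, Mgp, Sparc, Dcn and Bgn, and for up to 3 genes of smallest p in each related list; others that are named were chosen after their values were seen. Alternatives were another pseudocount, no filter, median-of-ratios scaling, the replicate number as a block, the most abundant transcript alone, robust eBayes, adipocyte marker covariates and leaving out libraries.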

Additional observations from a re-analysis of the deposited data

Results flagged for a closer look

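In 10 of 130 groups of 6 libraries, 1 library stood far from the rest: its gap to the nearest other library, as a share of the group's whole range, was above Dixon's 95% critical value of 0.625. Chance alone gives about 1 such group in 20. No cause was tested for any of them.

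Fasted replicate 1 was the outlying library in 5 of the 10. It was highest for Lox at 321 FPKM, with a gap of 0.793 of the range. The gap was 0.721 for Ltbp2 at 52.3 FPKM, 0.671 for Fn1 at 305 FPKM and 0.647 for Sparc at 2707 FPKM. For the summed FPKM of the members the gap was 0.649, at 14097 FPKM.

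Control replicate 4 was highest for Thbs1, at 54.7 FPKM with a gap of 0.85, for Dcn, at 794 FPKM with 0.627, and for Omd, at 27.5 FPKM with 0.637. Control replicate 3 was lowest for Fbn1, at 72.2 FPKM with a gap of 0.72. Control replicate 1 was lowest for Has1, at 0.0963 FPKM with a gap of 0.692.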

How the results depend on the processing

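The count of genes called was 3821 and ranged from 3157 to 4168 under every alternative but the adipocyte marker covariates, which gave 2211 (1018 higher and 1193 lower). The members that rose numbered 5, but 3 with the most abundant transcript alone, 9 leaving out both fasted replicates 1 and 3, and 2 to 5 leaving out each library in turn. With the most abundant transcript alone Dcn lost its call, and so did Thbs1, which has only 1 listed transcript. The members that fell numbered 11, but 8 with the most abundant transcript alone, 6 with adipocyte marker covariates and 9 to 13 leaving out each library. Mfap5, Efemp2 and Tnxb lost their calls with the most abundant transcript alone. The 75 isoform shares called became 0 with the replicate block (limma, with 1522 of 14107 at an unadjusted p under 0.05) and 39 to 61 leaving out each library, and the 0 called member shares became 1 for genes of at least 5 FPKM and 0 to 1 leaving out each library. Causes of these moves were not tested. Emilin1, Fbln5, Ltbp1, Tnc, Spp1 and Aspn kept their calls in all 20 alternatives.

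Equal replicate numbers gave correlations of -0.0063 to 0.0845 between the groups' deviations, beside -0.134 to 0.104 for unequal numbers. Of the 6 controls 2 correlated best with their own number. These values show no clear pairing by number, but cannot decide whether libraries of equal number share a batch. With the replicate block 3652 genes and 2576 transcripts were called, the latter beside 3332 without it, and 6 members rose and 9 fell; Mfap5 and Loxl1 lost their calls (adjusted p = 0.0915 and 0.0585) and Efemp1 gained one (0.01304). Median-of-ratios scaling moved the median difference of all genes tested by 0.0247.

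Only members that were not called, and Papss1, changed sign. With the most abundant transcript alone, log2 differences were 0.28 for Fbn1, -0.039 for Mfap4, -0.076 for Fbln2, -0.012 for Ltbp4, -0.019 for Lox, -0.12 for Thbs3, 0.33 for Postn, -0.061 for Vcan and 0.00057 for Papss1. With adipocyte marker covariates they were 0.052 for Fbn1, 0.32 for Fn1, 0.14 for Comp, 0.16 for Ogn and 0.042 for Prelp. With median-of-ratios scaling they were 0.011 for Fn1 and 0.0034 for Prelp. Leaving out both fasted replicates 1 and 3 gave -0.061 for Lox, -0.055 for Ecm1 and 0.062 for Ogn. Leaving out each library in turn gave -0.13 to 0.041 for Fbn1, -0.030 to 0.045 for Ltbp4, -0.088 to 0.055 for Lox, -0.25 to 0.19 for Fn1, -0.10 to 0.15 for Thbs3, -0.0069 to 0.11 for Ecm1 and -0.10 to 0.017 for Ogn. Depth is unknown, so no limit of detection was set for low genes such as Has1.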

Other observations

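The spread of the members within a group was close to that of the whole table. The median coefficient of variation over 45 tested members was 10.9% in controls and 14.3% in fasted aortae, beside 11.1% and 13.4% over all genes tested. It was higher in the fasted group in 31 of 45 members, beside 62.1% of all genes.

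Several genes of glycosaminoglycan chains outside the 3 of smallest p were also called, and these were chosen after their values were seen. The xylosyltransferase Xylt1, which starts chondroitin and heparan sulfate chains, fell from 3.68 ± 0.4604 to 2.34 ± 0.247 FPKM (SD, n = 6; limma, adjusted p = 0.000568). Galactosyltransferases of the linkage region fell as well, B4galt7 with a log2 difference of -0.33 ± 0.086 and B3galt6 with one of -0.48 ± 0.079. Idua and Gusb, lysosomal enzymes that degrade such chains, fell with log2 differences of -1.21 ± 0.32 and -0.55 ± 0.14. Prg4, lubricin, rose from 0.801 ± 0.766 to 5.01 ± 4.43 FPKM (adjusted p = 0.0159), with its mean below 1 FPKM in controls.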
